A study of Drosophila melanogaster with 10 samples.

Results

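Among cells sorted for GFP from fly brains in which T4 and T5 neurons were labelled, 2116 neurons carried almost no RNA of the transcription factor genes that T4/T5 neurons share, *SoxN*, *Sox102F* and *Lim1*. They are called factor-negative neurons here. A cell was eligible with at least 2000 unique molecular identifiers (UMIs, each standing for 1 captured RNA molecule), at most 10% of its UMIs on mitochondrial (mt:) genes and at most 10% on heat-shock (Hsp) genes. A factor-negative neuron had in addition at least 1 UMI of each of the neuronal genes *elav* and *nSyb*, at most 1 UMI of the 3 factors together, and at most 1 UMI of the glial genes *repo*, *alrm*, *Gs2* and *Eaat1* together. They were set against 54582 T4/T5 cells of the same libraries, which were eligible cells with at least 3 UMIs of the 3 factors. Of 72871 barcodes in the files, 57111 were eligible, so that factor-negative neurons made up 3.71% and T4/T5 cells 95.6% of them.

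All cells came from *Drosophila melanogaster* pupae that carried *SS00324-Gal4* recombined with *UAS-mCD8::GFP*, staged from 24 to 72 h APF (after puparium formation) in steps of 12 h, with 2 libraries per stage. There was no other genotype or treatment, and factor-negative neurons and T4/T5 cells of a library shared the same dissection, sort and droplet run. *SS00324* is a split-Gal4 line, in which Gal4 is assembled from a DNA-binding and an activation part under separate enhancers, and it was made to label T4/T5 neurons. Cells were chosen by GFP fluorescence, and GFP was carried over as an RNA in the counts.

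T4 and T5 neurons are the direction-selective cells of the fly optic lobe, and they use acetylcholine. Their neighbours in the medulla, lobula and lamina, and the neurons of the central brain, are told apart by the sets of transcription factors they keep through development, by their fast transmitter and by their neuropeptides. In pupae, neurons of all these kinds pass through waves of ecdysone-induced nuclear receptors and build their synapses late in metamorphosis.

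The neuronal label held, while the label of what the cells lacked followed from the rule. *brp*, which encodes a protein of the presynaptic active zone and was not used to choose cells, was present at 487 to 2540 counts per 1e6 UMIs (CPM) in factor-negative neurons of the 10 libraries. It was far lower in cells of group 10, described below, in 24 h replicate 1. The part of free RNA in its level was not tested. The summed level of *SoxN*, *Sox102F* and *Lim1* was 16.8 to 52.9 CPM in factor-negative neurons, against 2380 to 6535 CPM in T4/T5 cells. Of the factor-negative neurons, 1673 (79.1%) had 0 UMIs of the 3 factors and 443 had 1. T4/T5 cells held a median of 18 such UMIs, and 87.4% of them held at least 10. Just outside the limit, 214 cells that met the neuronal and glial limits had 2 factor UMIs, and 228, 380 and 572 cells had 3, 4 and 5, so the limit lay close to the sparsest region between the classes.

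Factor-negative neurons were spread unevenly over the libraries. Their share of the eligible cells, by replicate from the earliest stage to the latest, was 4.01% and 2.03% (24 h), 1.11% and 10.1% (36 h), 1.88% and 3.48% (48 h), 1.11% and 1.40% (60 h), and 1.70% and 2.77% (72 h). The second replicate at 36 h alone held 966 of them (45.7%), whereas the first replicate at 36 h held only 14. Stage means ran over 4.36 percentage points, and the replicates at 36 h differed by 9.0 points. An exact permutation test over all 945 pairings of the libraries gave p = 0.841 for a difference between stages. The result depended on the first 36 h library, since without it the stage means ran over 8.86 points. The 36 h stage then rested on the second replicate alone, so that setting cannot test a difference between stages. Each level below is therefore given by library, and 36 h replicate 1 rests on 14 cells.

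**Figure D1:**
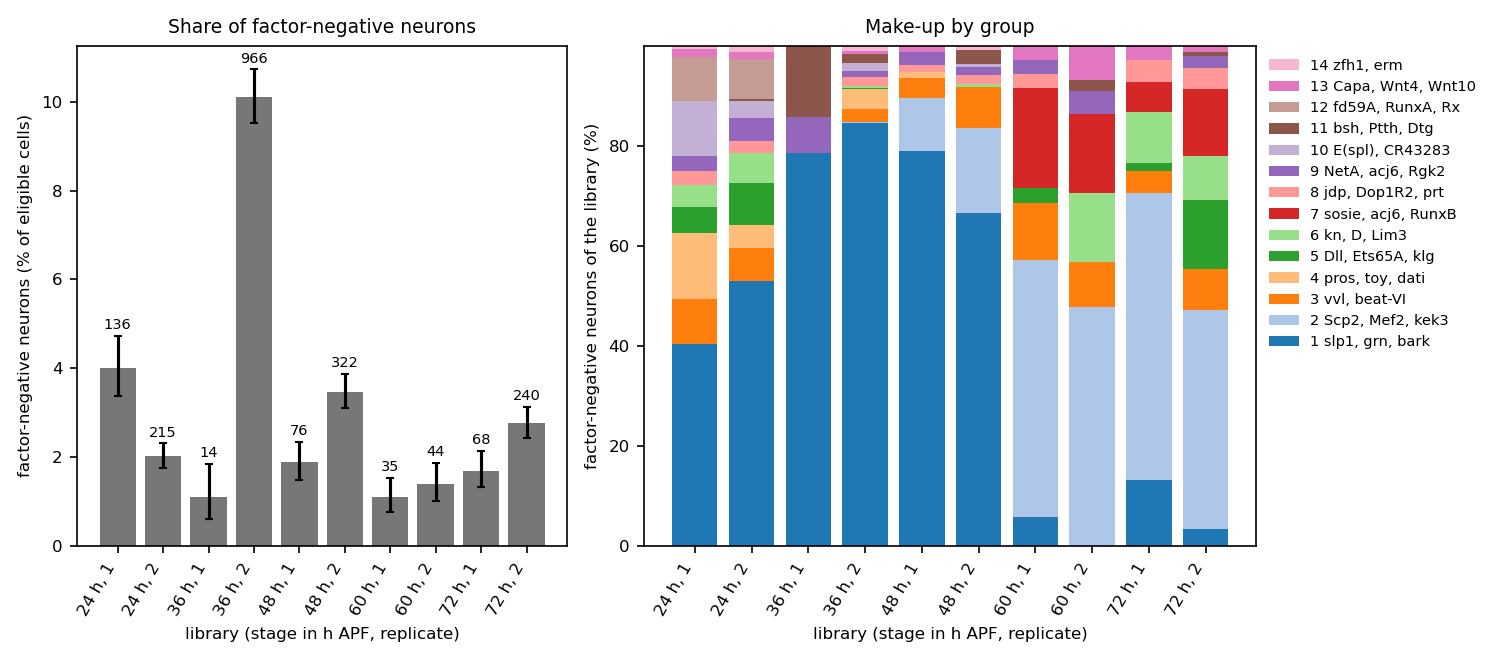
Left, share of factor-negative neurons among eligible cells (%) in each library, with the number of cells above the bar and 95% exact binomial intervals, which cover counting error only. Right, percentage of the factor-negative neurons of each library in the 14 groups described in the text, which shows group 1 leading from 24 to 48 h and group 2 at 60 and 72 h APF.

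Total UMIs per library ranged between 12798989 and 62530395. The median UMIs per cell were 3570.5 to 9138.5 in factor-negative neurons, against 3134.5 to 8472 in T4/T5 cells, and factor-negative neurons were the deeper class in every library except 36 h replicate 1 (medians 3570.5 and 8472). A doublet caller marked 86 factor-negative neurons (4.06%) and 4377 T4/T5 cells (8.02%), and both were kept. Of the barcode sequences, 625 occurred in more than 1 library. For 43 factor-negative neurons the sequence also occurred in another library, and 1 sequence was a factor-negative neuron in both libraries. In T4/T5 cells, *scro*, *sNPF*, *zfh2*, *sim* and *tj*, described below, were highest in 36 h replicate 2, the library with most factor-negative neurons, where *sNPF* reached 186 CPM against 11.8 to 51.8 CPM in T4/T5 cells of the other libraries. The part of free RNA or of misassigned cells in that level was not tested.

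Clustering of the factor-negative neurons on library-centred values gave 29 clusters, which were joined into 14 groups by their transcription factor profiles. GFP and the transmitter genes were kept out of the clustering, so their levels in a group do not follow from it. The genes of the rule, mt: and Hsp genes, the *roX* RNAs and the Gal4 parts were kept out as well. Of the other genes, the 1500 most variable entered the clustering. The leading genes below describe the groups without a test. The groups are numbered by size and named by the genes with the largest fold over all other factor-negative neurons. Clustering without the centring, or at a resolution of 0.5, also gave 14 groups, although groups 3, 4, 5 and 7 were then divided differently.

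Group 1 was by far the largest, with 1289 cells (60.9%). Its leading genes were the forkhead factor genes *slp1* and *slp2*, the GATA factor gene *grn*, *bark* and the large Maf factor gene *tj*. *slp1* stood at 241 CPM in the group, against 6.47 CPM in all other factor-negative neurons. The group also held 2898 CPM of *sNPF*, which encodes the short neuropeptide F precursor, 887 CPM of the NK-2 homeobox gene *scro* and 810 CPM of the zinc-finger homeobox gene *zfh2*. It made up 40.4% and 53.0% (24 h), 78.6% and 84.5% (36 h) and 78.9% and 66.5% (48 h) of the factor-negative neurons, but only 5.71% and 0% (60 h) and 13.2% and 3.33% (72 h) later.

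Group 2 (248 cells, 11.7%) took its place late, with 51.4% and 47.7% of the factor-negative neurons in the 60 h libraries and 57.4% and 43.8% in the 72 h libraries. Its leading genes were *Scp2*, which encodes a calcium-binding protein, *Mef2*, a MADS-box factor gene, *RluA-1*, *kek3* and *Lmpt*. It carried 652 CPM of *Tk*, the tachykinin precursor gene, and 318 CPM of *ap*, a LIM homeobox gene. *sNPF* was at 1.88 CPM, so groups 1 and 2 held different peptide genes. Group 3 (112 cells in 9 libraries) was led by the POU factor gene *vvl*, with 1366 CPM in the group against 23.8 CPM in the other factor-negative neurons. It also had 267 CPM of *Tk* and 301 CPM of *ap*.

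Groups 4, 5, 6 and 12 had the most *VGlut*, the gene of the vesicular glutamate transporter, at 710, 1929, 1794 and 1619 CPM. In the other 10 groups *VGlut* was between 0 and 76.5 CPM. Not all of their cells carried it, since a *VGlut* UMI was found in 40.3%, 34.4%, 57.6% of the cells of groups 4, 5 and 6 and in every cell of group 12. In group 4 it was at 1386 CPM in 36 h replicate 2, against 398 and 100 CPM in the 24 h libraries. Group 4 (67 cells, nearly all at 24 and 36 h) was led by *pros*, at 9415 CPM, *toy*, a Pax6 gene, *beat-Va*, *dati* and *AANAT1*. Group 5 (61 cells) was led by the homeobox gene *Dll* and *Ets65A*, and group 6 (59 cells) by *kn*, *CG11294*, *D*, *Lim3* and *Sox21b*, in large part transcription factor genes. Group 12 (29 cells) was found only at 24 h and was led by *CG4328*, *fd59A*, *RunxA*, *Rx* and *Lmx1a*. Its cells were the deepest, with a median of 20418 UMIs, and *VAChT*, the gene of the vesicular acetylcholine transporter, was at 1.63 CPM.

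Groups 7 and 9 shared the POU factor gene *acj6*, which T4/T5 cells also express, and the nicotinic receptor subunit gene *nAChRalpha6*. *acj6* was at 1500 CPM in group 7 (50 cells at 60 and 72 h) and at 946 CPM in group 9 (41 cells in 9 libraries). *nAChRalpha6* was at 15128 and 9840 CPM in these groups, against 2140 CPM in group 13 and at most 1225 CPM in any other group. Group 7 was led by *sosie* and group 9 by *CG14086*, *NetA* and *Rgk2*. Group 8 (49 cells in 8 libraries) was Kenyon cell-like by most of 8 markers. Kenyon cells are the intrinsic neurons of the mushroom bodies in the central brain. *Pka-C1* stood at 6406 CPM, against 554 to 1816 CPM in the other 13 groups, *rut* at 664, against 55.5 to 332 CPM, and *mub* at 6965, against 647 to 5343 CPM. *prt* was at 262 CPM, against 0 to 173 CPM, and *ey* at 240, against 0 to 189 CPM. These 5 were highest in group 8, but the other 3 were not: *dac* was at 404.5 CPM and at 643 CPM in group 14, *Fas2* at 657 CPM and at 2332 CPM in group 14, and *sNPF* at 449 CPM and at 3291 CPM in group 11. In 36 h replicate 2, *sNPF* was at 70.7 CPM in group 8. Its leading genes were *jdp*, *CG34402*, *Dop1R2*, *prt* and *Imp*.

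Group 10 (40 cells, from 24 to 48 h) held E(spl) genes, which are targets of Notch signalling, and 39233 CPM of *lncRNA:CR43283*. The neuronal gene *brp* was at 19.1 CPM in its 15 cells of 24 h replicate 1, against 301 to 849 CPM in groups 1, 3, 4 and 12. In its 16 cells of 36 h replicate 2, *brp* was at 228 CPM, against 274 CPM in group 9 and 514 CPM in group 1. Group 11 (32 cells) was led by *bsh*, a homeobox gene, at 861 CPM, and group 14 (18 cells) by *CG32052*, *zfh1* and *erm*. Only 31.3% of group 11 and 38.9% of group 14 had 0 factor UMIs, against 81.5% in group 1. Both carried genes that described group 1: in 36 h replicate 2, *sNPF* was at 3433 CPM in group 11, 2711 CPM in group 14 and 3222 CPM in group 1, and *scro* at 709, 1039 and 897 CPM. Group 13 (21 cells in 8 libraries) held 2302 CPM of the peptide gene *Capa*, together with *Wnt4*, *Wnt10*, *Fs* and 405 CPM of *dimm*, a factor gene of peptide-secreting cells.

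**Figure D2:**
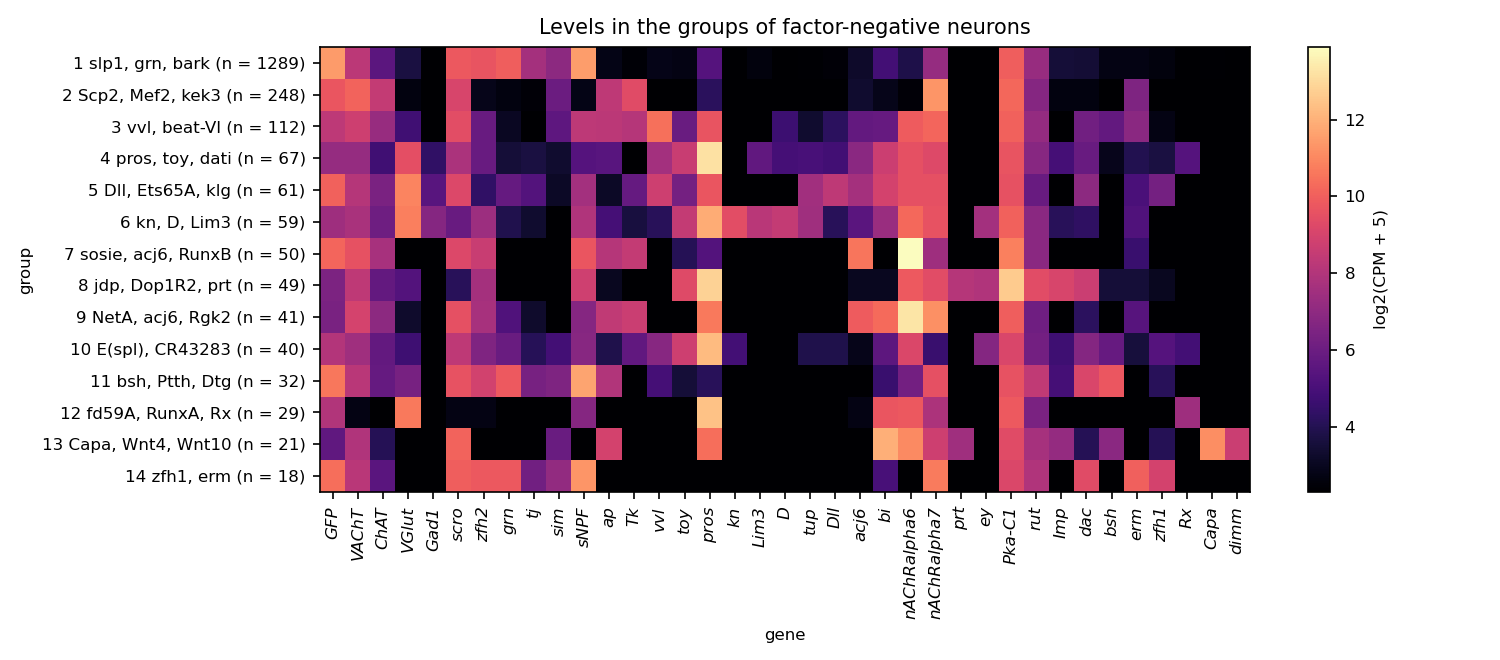
Levels of GFP, transmitter genes and selected transcription factor, peptide and receptor genes in the 14 groups of factor-negative neurons, as log2(CPM + 5) of all UMIs of a group, with the number of cells in brackets. Colours are to be compared within a column, and *VGlut* is brightest in groups 4, 5, 6 and 12.

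GFP RNA divided the groups although it was kept out of the clustering. It was at 2873 CPM in group 1, between 832 and 1537 CPM in groups 2, 5, 7, 11 and 14, and between 46.3 and 311 CPM in groups 3, 4, 6, 8, 9, 10, 12 and 13. After each cell was thinned to 2000 UMIs, a GFP UMI was expected in 88.5% of the cells of group 1, in 37.0% of group 2 and in 13.4% of the Kenyon cell-like group 8. In group 1 it was at 1181 and 1072 CPM (24 h), 3439 and 3056 CPM (36 h) and 3090 and 3336 CPM (48 h). In group 2 it was lower at the later stages, with 1545 CPM in 48 h replicate 2, 953 and 1335 CPM at 60 h, and 437 and 63.0 CPM at 72 h APF. In 72 h replicate 2, the 33 cells of group 5 held 2187 CPM, against 95.2 CPM in its 18 cells of 24 h replicate 2.

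Over all factor-negative neurons, GFP was lower than in T4/T5 cells in every library. In stage order, factor-negative neurons had 459 and 579, 2878 and 2661, 2890 and 2839, 1273 and 762, and 513 and 519 CPM, against 4143 to 8965 CPM in T4/T5 cells. The classes did not overlap, and the level in factor-negative neurons was highest at 36 and 48 h. The mean within-library difference was -2.44 in log2(CPM + 5) (SD 1.13, n = 10, exact sign-flip permutation test, two-sided, adjusted p = 0.0146 over 30 tests). In thinned cells, 19.3% to 84.7% of the factor-negative neurons of a library had a GFP UMI, against 96.1% to 99.8% of its T4/T5 cells. The part of free GFP RNA in the levels of factor-negative neurons was not tested. The RNAs of the Gal4 parts were rare. The DNA-binding part averaged 1.53 CPM in factor-negative neurons and 16.2 CPM in T4/T5 cells, and the activation part was seen in factor-negative neurons in 1 library, at 0.575 CPM.

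Across all stages, 8014 genes were compared between factor-negative neurons and T4/T5 cells with edgeR's quasi-likelihood test on UMI sums per library and class, with the library as a block. A gene was called with a Benjamini-Hochberg adjusted p under 0.05 and a change of at least 2-fold. This called 959 genes (12%), 600 of them (7.49%) higher and 359 (4.48%) lower in factor-negative neurons. Since the classes were cut by RNA of the same cells, genes that go with *SoxN*, *Sox102F* and *Lim1* had to differ, and the test describes how steady a difference was over libraries. The genes read by the rule are in no count. A sum over many neurons cannot tell fewer cells of a type from less RNA per cell, here or below.

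Transcription factor genes of optic lobe neurons made up the clearest set. Of 14 genes listed as factors of medulla neurons, 13 were higher in factor-negative neurons and none was lower, with a median log2 fold change of 3.92, against -0.07 over all genes. The 14th, *hth*, was at 0.05 and was not called. Among 39 homeobox genes, 23 were higher and only *acj6* was lower, with a median of 2.85. Over all genes, 7.49% were higher and 4.48% lower. The same number of medulla factors was called without group 1 and without 36 h replicate 2 (13 of 14 each). *bsh* was the least stable of them, with a log2 fold change of 2.12 that fell to 0.85 (adjusted p = 0.279, edgeR) when only cells with 0 factor UMIs were kept.

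*scro* was high in every library of factor-negative neurons. It had 496 and 678, 1069 and 814, 851 and 719, 548 and 468, and 596 and 440 CPM from the earliest stage to the latest, against 3.69 to 61.3 CPM in T4/T5 cells. The classes did not overlap, which held for 79 genes in all (0.986%). Its log2 fold change was 5.70 ± 0.38 (SE; edgeR, adjusted p = 1.27e-06). *zfh2* (4:501810-540874, plus strand, BDGP6.54) had 249 and 501, 1174 and 760, 1044 and 439, 111 and 101, and 251 and 93.1 CPM in factor-negative neurons in stage order, against 5.22 to 60.4 CPM in T4/T5 cells. It did not overlap between the classes either, although it was lower after 48 h.

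*sim*, which encodes a bHLH-PAS factor (3R:13057755-13078124, plus strand), had 71.5 and 97.1, 159 and 109, 96.3 and 78.2, 60.5 and 13.1, and 40.2 and 17.7 CPM in factor-negative neurons, against 0 to 7.37 CPM in T4/T5 cells. *ap* was highest at 60 h, with 36.1 and 41.2, 95.2 and 16.3, 57.2 and 78.2, 349 and 307, and 141 and 180 CPM, against 0.294 to 4.38 CPM in T4/T5 cells. Neither gene overlapped between the classes, and their log2 fold changes were 5.92 ± 0.47 and 5.13 ± 0.57 (SE). *tj* (2L:19464267-19467758, plus strand) was at 6.72 to 381 CPM in factor-negative neurons, against 0.0423 to 10.3 CPM in T4/T5 cells, with a log2 fold change of 5.55 ± 0.42 (SE). Its libraries overlapped between the classes, since factor-negative neurons of 60 h replicate 1 and 72 h replicate 2 had only 6.72 and 8.13 CPM, below the 10.3 CPM of T4/T5 cells in 36 h replicate 2.

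Rarer factor genes were higher as well. *vvl* (3L:6790158-6794941, plus strand), the leading gene of group 3, was at 0 CPM in the 14 cells of 36 h replicate 1 and at 36.2 to 248 CPM in factor-negative neurons of the other libraries, against 0.17 to 12.6 CPM in T4/T5 cells. The log2 fold change of the paired-like gene *Vsx1* was 4.44 ± 0.42 (SE), and those of the Pax6 genes *ey* and *toy* were 4.84 ± 0.44 and 3.67 ± 0.27 (SE). All 3 genes were at 0 in factor-negative neurons of 36 h replicate 1.

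Genes of the T4/T5 subtypes lay the other way. Of 19, 9 were lower in factor-negative neurons (*TfAP-2*, *dac*, *bi*, *ab*, *CG34353*, *side-II*, *Dscam3*, *mav* and *robo3*) and only *side-IV* was higher, with a median log2 fold change of -1.33. The shares over all genes were 4.48% lower and 7.49% higher. *dac*, a nuclear factor gene of subtypes a and b, had 6.72 to 116 CPM in factor-negative neurons, against 103 to 483 CPM in T4/T5 cells, and was lower in 10 of 10 libraries. *TfAP-2*, a T4 gene, was called lower at 24, 36 and 48 h and at neither later stage. At 60 h it had 191 and 186 CPM in factor-negative neurons, against 165 and 152 CPM in T4/T5 cells. Its call was lost without group 1 (log2 fold change -0.37, edgeR, adjusted p = 0.0632). *grn* was higher at 24, 36 and 48 h (log2 fold changes 1.29, 2.07 and 1.63) and lower at 60 and 72 h (-2.33 and -1.65), along with the share of group 1.

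The next genes were picked among those lower in every library. *Nlg2*, a neuroligin gene (2L:6874900-6906656, plus strand), had 144 and 132, 95.2 and 131, 136 and 114, 373 and 288, and 345 and 429 CPM in factor-negative neurons, against 1659 to 4515 CPM in T4/T5 cells. *acj6* (X:15350239-15379064, minus strand) had 16.5 to 42.3 CPM until 48 h, then 282 and 311 CPM at 60 h and 80.4 and 238 CPM at 72 h in factor-negative neurons, against 513 to 1167 CPM in T4/T5 cells. Neither overlapped between the classes, and group 7, which carried *acj6*, was found at 60 and 72 h only. Their log2 fold changes were -3.99 ± 0.34 and -3.73 ± 0.39 (SE). *CG42750* (2L:18159811-18275770, minus strand) had 31.7 to 765 CPM in factor-negative neurons, against 1278 to 6833 CPM in T4/T5 cells.

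Several genes were nearly absent from factor-negative neurons. *cutlet* (2L:3707230-3711748, minus strand) had 16 UMIs in all of them, against 15399 in T4/T5 cells, and was at 0 in 6 libraries, compared with 34.2 to 61.9 CPM in T4/T5 cells. The clock gene *tim* had 5 UMIs, against 7648 in T4/T5 cells. *CG13579* was at 0 to 9.77 CPM, against 42.0 to 452 CPM in T4/T5 cells. *ple*, which encodes tyrosine hydroxylase of the dopamine pathway, had 8.17 and 1.35 CPM at 48 h in factor-negative neurons, against 398 and 244 CPM in T4/T5 cells. Outside 48 h, *ple* was at 40.6 CPM or less in T4/T5 cells, and by stage it was called at 36, 48 and 60 h. Its log2 fold change over all stages was -4.93 ± 0.76 (SE).

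**Figure D3:**
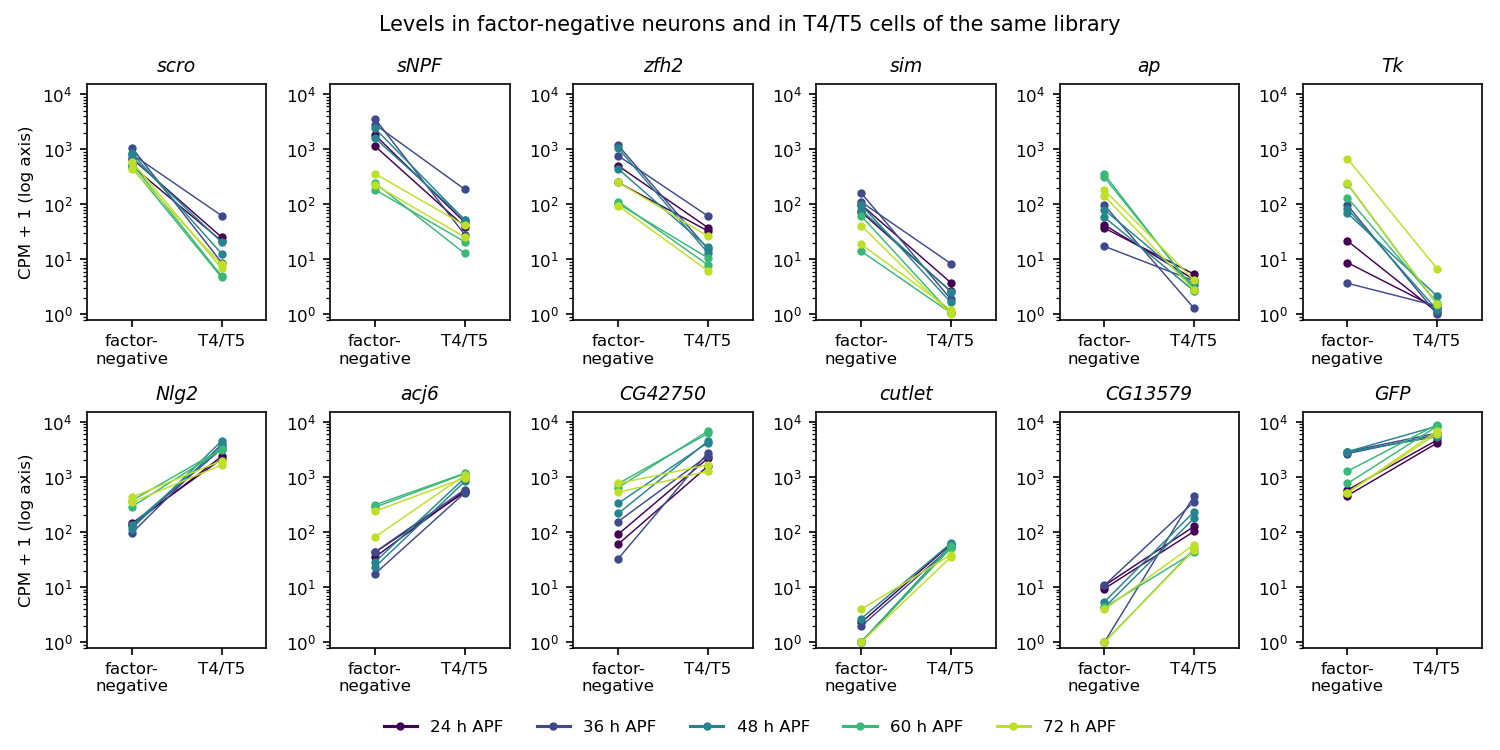
Level of 12 genes in factor-negative neurons (left) and T4/T5 cells (right) of each of the 10 libraries, as CPM + 1 on a log axis, with a line for each library coloured by stage. The libraries of the classes do not overlap in 10 of the 12 panels, and they overlap for *sNPF* and *Tk*.

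Neuropeptide genes marked different cells at different stages. Of 14 tested, 8 were higher (*sNPF*, *Tk*, *Dh44*, *Pdf*, *Proc*, *Nplp1*, *spab* and *Capa*) and 3 were lower (*Mip*, *AstA* and *Gpb5*) in factor-negative neurons, with a median log2 fold change of 1.51. The shares over all genes were 7.49% higher and 4.48% lower. *sNPF* (2L:20027915-20056373, plus strand) had 1135 and 1815 CPM (24 h), 3555 and 2810 CPM (36 h), 2387 and 1590 CPM (48 h), 242 and 183 CPM (60 h), and 359 and 225 CPM (72 h), against 11.8 to 186 CPM in T4/T5 cells. *Tk* (3R:11994175-12005473, minus strand) had 20.6 and 7.72, 95.2 and 2.68, 81.7 and 67.8, 131 and 232, and 238 and 674 CPM, against 0 to 5.74 CPM in T4/T5 cells. *sNPF* was highest at 36 h and *Tk* at 72 h. The log2 fold changes were 4.43 ± 0.40 for *sNPF* and 6.84 ± 0.61 for *Tk* (SE). *Pdf*, *Dh44* and *Proc* were rare. *Proc*, for example, reached at most 6.44 CPM in a library of factor-negative neurons, against at most 0.237 CPM in T4/T5 cells.

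Other genes with a large rise were *mew*, an integrin alpha subunit gene, with 12.8 to 362 CPM in factor-negative neurons, against 0.535 to 5.22 CPM in T4/T5 cells, and *caps*, a leucine-rich repeat adhesion gene, with 50.8 to 562 CPM, against 0.686 to 32.3 CPM. *unc-13-4A*, *CG44422*, *CG14431* and *CG31997* followed, with log2 fold changes of 4.41, 4.39, 4.35 and 4.34. A rise in 10 of 10 libraries was asked of these genes when they were picked, so it is no result about them. Over all genes, a direction shared by all libraries was seen for 765 (9.55%).

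The transmitter genes were tested by library, with all 30 tests of 15 genes adjusted together. *VAChT* (3R:18705501-18718916, plus strand, inside the longer *ChAT* gene on the same strand, so reads of the shared part cannot be told apart) had 175 and 228, 434 and 280, 340 and 282, 692 and 723, and 1106 and 1079 CPM in factor-negative neurons. T4/T5 cells had 186 and 194, 271 and 209, 256 and 266, 602 and 614, and 725 and 862 CPM. The within-library difference was 0.31 in log2(CPM + 5) (SD 0.23), higher in 9 of 10 libraries (exact sign-flip permutation test, adjusted p = 0.0195). It was 0.10 without group 1 (exact permutation, adjusted p = 0.570). edgeR did not call *VAChT*, but its calls ask for a 2-fold change, so a difference of this size could not be called. *VAChT* was at 302 CPM in group 1 and at 1088 CPM in group 2.

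*VGlut* (2L:2400295-2410662, plus strand) had 526 and 527 CPM (24 h), 0 and 97.7 CPM (36 h), 0 and 18.9 CPM (48 h), 0 and 81.7 CPM (60 h), and 281 and 392 CPM (72 h) in factor-negative neurons, against 0.392 to 14.5 CPM in T4/T5 cells. It was higher in 7 of 10 libraries, and the other 3 held 14, 76 and 35 factor-negative neurons. The difference was 2.30 in log2(CPM + 5) (SD 2.43, exact sign-flip permutation test, adjusted p = 0.0469), and this call was lost without any 1 of the 7 libraries that held more *VGlut* in factor-negative neurons (exact permutation, adjusted p between 0.0625 and 0.0938, differences between 2.02 and 2.50). It was also lost with doublets left out (2.26, exact permutation, adjusted p = 0.0524) and with a pseudocount of 1 CPM (2.26, exact permutation, adjusted p = 0.0865). edgeR called *VGlut* at a log2 fold change of 3.55 ± 0.75 (SE, adjusted p = 0.00427). In thinned cells, a *VGlut* UMI was expected in 19.6% and 16.4% of the factor-negative neurons at 24 h, against 0.692% and 0.765% of the T4/T5 cells, which serve as the background since they are cholinergic. The median depths were 9138.5 and 5741 UMIs, against 6318 and 5024 UMIs.

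Most factor-negative neurons had fewer than 3 UMIs of either transporter. At 3 or more UMIs, 773 factor-negative neurons had *VAChT*, 118 had *VGlut*, 7 had *Gad1*, which encodes the GABA-synthesising enzyme, and 1 had both *VAChT* and *VGlut*. Of the 118, 107 (90.7%) lay in groups 4, 5, 6 and 12, which held 216 cells. These groups also held *VAChT*, at 142, 265, 212 and 1.63 CPM, and in 72 h replicate 2 it was at 403 CPM in group 5 and 409 CPM in group 6. *Gad1* reached 29.6 CPM in 72 h replicate 2 and at most 5.80 CPM in the other libraries, against 0 to 3.69 CPM in T4/T5 cells. edgeR called it at a log2 fold change of 1.95 ± 0.61 (SE, adjusted p = 0.0343), but the exact test over libraries did not (adjusted p = 0.284, exact permutation). Without 72 h replicate 2, edgeR gave 1.64 (adjusted p = 0.133). The other GABA gene listed, *VGAT* of the vesicular GABA transporter, went the other way and was higher in only 2 of 10 libraries. Its difference was -0.33 in log2(CPM + 5) (SD 0.37, exact sign-flip permutation test, adjusted p = 0.0430). Its share of thinned cells did not pass (exact permutation, adjusted p = 0.0977).

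Of the monoamine genes, *Tbh*, which encodes the last enzyme of octopamine synthesis, was higher in 10 of 10 libraries, with 7.47 to 118 CPM in factor-negative neurons, against 1.01 to 19.1 CPM in T4/T5 cells (difference 1.61, exact sign-flip permutation test, adjusted p = 0.0146). *DAT*, the dopamine transporter gene, was higher in 8 of 10 (difference 1.06, exact permutation, adjusted p = 0.0195). *Trh*, *SerT* and *Tdc2*, needed for serotonin, octopamine and tyramine neurons, were at 0 in all factor-negative neurons.

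**Figure D4:**
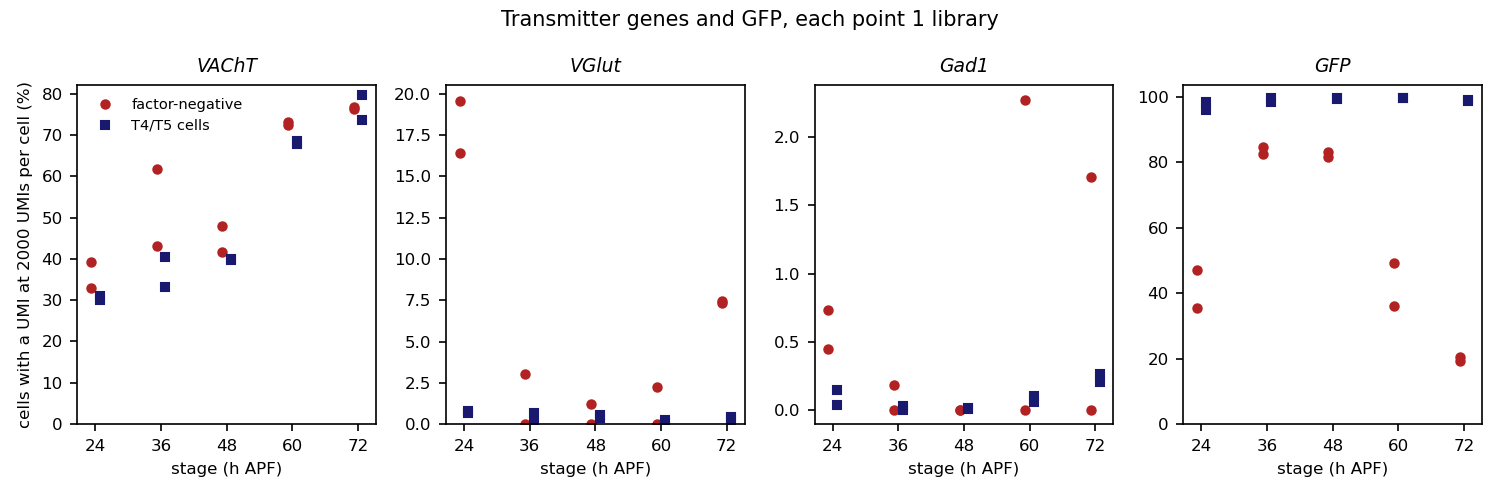
Share of cells (%) expected to hold a UMI of *VAChT*, *VGlut*, *Gad1* or GFP after thinning each cell to 2000 UMIs, in factor-negative neurons (circles) and T4/T5 cells (squares) of each library, by stage in h APF and set slightly apart. The vertical scale differs between panels, and GFP separates the classes at every stage.

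Markers of other cell types stayed low. The summed level of 5 glial genes had a median of 52.3 CPM in factor-negative neurons, against 75.2 CPM in T4/T5 cells, although the rule limited 4 of these genes in factor-negative neurons only. For 14 photoreceptor genes it was 228 CPM, against 163 CPM, and *ninaE*, *Arr2*, *Rh4* and *Rh6* were at 0 while *norpA* carried the sum (193 to 421 CPM). For 6 hemocyte genes it was 101 CPM, against 266 CPM, with *Hml*, *He*, *srp* and *NimC1* at 0 and *Pxn* carrying the sum. The photoreceptor genes *ninaC* and *trpl* and the muscle gene *bt* were called higher, at means of 7.71, 1.09 and 2.54 CPM in factor-negative neurons, against 0.265, 0.0689 and 0.171 CPM in T4/T5 cells. Progenitor and muscle genes had medians of 9.79 and 2.19 CPM in factor-negative neurons, against 6.29 and 0.849 CPM in T4/T5 cells.

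General synaptic genes differed little between the classes in the fit over all stages. Of 23 genes of the presynaptic release machinery, that fit called none in either direction, with a median log2 fold change of -0.05. It averages over the stages, so it does not show that single stages were alike. The class difference of 3 of the 23 genes (*Rbp*, *cpx* and *Frq1*) moved downwards between 24 and 72 h APF, as described below. Of 9 nicotinic receptor genes, *nAChRalpha6* and *nAChRalpha7* were higher. *nAChRalpha7* had 275 and 327, 180 and 232, 575 and 846, 2049 and 1857, and 965 and 1183 CPM in factor-negative neurons, against 24.5 to 96.1 CPM in T4/T5 cells, without overlap. Its log2 fold change was 3.57 ± 0.55 (SE). Of 10 inhibitory receptor genes, *GABA-B-R3* was higher and *ort*, which encodes a histamine-gated chloride channel, was lower. For both receptor sets the shares over all genes were 7.49% higher and 4.48% lower. *ort* had 13.1 and 9.10 CPM at 48 h in factor-negative neurons, against 456 and 327 CPM in T4/T5 cells.

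Cell surface genes of synaptic partner matching moved in both directions. Over all genes, 7.49% were higher and 4.48% lower. Of 21 *dpr* genes, which encode immunoglobulin proteins that bind the DIP proteins, 4 were higher and 5 lower, and of 8 DIP genes 2 were higher. Of 21 genes of the Beat and Side families, another set of interacting immunoglobulin proteins, 9 were higher and 2 lower, with a median log2 fold change of 0.85. *side-IV* was the steadiest, with 212 to 581 CPM in factor-negative neurons, against 47.0 to 141 CPM in T4/T5 cells, and log2 fold changes of 1.82 to 2.44 over the stages. *beat-IIIc* did not overlap either (22.6 to 370 CPM, against 1.37 to 19.6 CPM). Among 6 temporal regulators, *Imp* was higher and *lin-28* lower, and the RNA-binding protein gene *Syp* was at a log2 fold change of -0.19.

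Within single stages, the 24 h comparison called 952 genes (11.9%, with 8.20% higher and 3.68% lower in factor-negative neurons). The count was 905 (11.3%, with 6.45% and 4.84%) for 36 h and 1304 (16.3%, with 8.45% and 7.82%) for 48 h, the stage with most calls. It was 717 (8.95%, with 4.57% and 4.38%) for 60 h and 910 (11.4%, with 6.18% and 5.18%) for 72 h. At 36 h only 439 genes were called without replicate 2, which left the 14 cells of replicate 1, and at 48 h 709 were called without group 1. *scro* was called at each of the 5 stages, with log2 fold changes of 4.66, 4.87, 5.52, 6.90 and 6.05, and *nAChRalpha7* with 2.46, 1.29, 3.32, 6.12 and 4.64.

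Between stages, the factor-negative neurons at 72 h were compared with those at 24 h APF with edgeR over 6061 genes. Of these, 1828 (30.2%) were called, 945 (15.6%) higher and 883 (14.6%) lower at 72 h. The make-up of the class changed at the same time: group 1 made up 13.2% and 3.33% of the cells at 72 h, against 40.4% and 53.0% at 24 h, and group 2 made up 57.4% and 43.8%, against 0%. Without 24 h replicate 1 the count was 1027 and without 24 h replicate 2 it was 1113, in fits where a lone 24 h library was assumed to vary like the other stages. The part of the change in make-up in the results below was not tested. The libraries of the stages did not overlap for 4376 genes (72.2%), so with 2 against 2 libraries the lack of overlap sets few genes apart. T4/T5 cells are given beside the stage series as levels only.

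Genes of the ecdysone cascade peaked at different stages. Of its 15 genes, 7 were higher and 4 lower at 72 h in factor-negative neurons, against 15.6% and 14.6% of all genes. *Hr3* averaged 1.93, 587, 995, 933 and 544 CPM over the 5 stages in factor-negative neurons, and 0.757, 341, 1417, 1152 and 612 CPM in T4/T5 cells. *Hr4* peaked at 48 h, with 8234 and 6572 CPM in factor-negative neurons and 8631 and 9065 CPM in T4/T5 cells. *ftz-f1*, a late nuclear receptor gene (3L:18750607-18801309, minus strand), was at 7.75 CPM or less until 48 h and at 1367 and 1524 CPM at 60 h and 1933 and 2057 CPM at 72 h in factor-negative neurons. In T4/T5 cells it was at 0.734 CPM or less, then at 1374 and 1379, and then at 3471 and 3502 CPM.

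*ftz-f1* was also higher late within groups. In group 2 it was at 24.1 CPM in 48 h replicate 2, 1084 and 1444 CPM at 60 h, and 2117 and 2031 CPM at 72 h APF, and in group 3 it was at 0 CPM in both 24 h libraries and at 2656 CPM in 72 h replicate 2. *Blimp-1*, a transcriptional repressor gene of the same cascade, fell to 3.35 and 5.91 CPM at 72 h, against 691 and 930 CPM at 24 h, in factor-negative neurons. *br* was at 57.0 and 13.3 CPM at 72 h, against 422 and 156 CPM at 24 h (log2 fold change -3.00 ± 0.92 SE, edgeR, adjusted p = 0.0275), and its call was lost without 24 h replicate 1 (adjusted p = 0.189) and without 72 h replicate 2 (adjusted p = 0.161).

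Most presynaptic genes rose. Of 23 presynaptic genes, 16 were higher at 72 h and none lower, against 15.6% and 14.6% of all genes. The median log2 fold change was 1.95, against -0.07 over all genes, and 20 of 23 were higher without group 1. *brp* had 2540 and 1654 CPM at 72 h, against 487 and 771 CPM at 24 h, and *Syt1*, a synaptotagmin gene, had 1451 and 1340 CPM, against 284 and 418 CPM. Within group 3, *brp* was at 1992 CPM in 72 h replicate 2, against 301 and 565 CPM in the 24 h libraries.

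Acetylcholine and receptor genes were also higher. *VAChT* and *ChAT*, the gene of choline acetyltransferase, had log2 fold changes of 2.80 ± 0.31 and 3.90 ± 0.31 (SE). *VGlut* was not called, at -0.28 ± 0.88 (SE), nor was *VGAT*, the gene of the vesicular GABA transporter, at 0.75 ± 0.36 (SE). Of 9 nicotinic receptor genes 7 were higher, and of 8 inhibitory receptor genes 7 were higher, with a median log2 fold change of 3.85. *Rdl*, which encodes a GABA receptor subunit (3L:9145838-9182149, minus strand), had 5994 and 7544 CPM at 72 h, against 497 and 394 CPM at 24 h. Over the stages it averaged 446, 506, 1166, 6967 and 6769 CPM in factor-negative neurons, and 130, 301, 5856, 5358 and 3488 CPM in T4/T5 cells, so that at 48 h it was lower in factor-negative neurons (log2 fold change -2.46). Of 21 *dpr* genes 15 were higher at 72 h and none lower, and of 21 *beat* and *side* genes 11 were higher and 1 lower. For all these sets the shares over all genes were 15.6% higher and 14.6% lower.

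The largest rises at 72 h, among genes whose libraries did not overlap between the stages, had nearly no UMIs at 24 h. *Scp2* (3R:16574543-16583663, minus strand) had 3454 and 1530 CPM at 72 h, against 0 and 0.643 CPM at 24 h, or 3102 UMIs against 1 UMI. The ratio of pooled CPM was 5835, with a 95% counting interval of 1047 to 230561. *CG18598*, *CG4546*, *Esyt2* and *s-cup* had no UMI at 24 h, and were at least 166-fold, 84.0-fold, 80.3-fold and 66.5-fold higher at 72 h, against a floor of 3 UMIs over the 24 h group. *CG12769* and *SP1029* had 1 and 3 UMIs at 24 h, against 673 and 1025 at 72 h.

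The largest falls among such genes also ended without UMIs in most cases. *nerfin-1*, a zinc-finger gene expressed in newly born neurons (3L:909112-912319, plus strand), had 86.3 to 196 CPM in every library until 48 h and no UMI at 60 and 72 h, so it was at least 60.1-fold lower at 72 h than at 24 h. T4/T5 cells held 6.29 and 6.13 CPM at 24 h. *aos*, an EGF receptor antagonist gene, the transporter gene *Oatp26F*, the innexin genes *ogre* and *Inx2*, and *Sox14* had no UMI at 72 h and were at least 113-fold, 106-fold, 64.5-fold, 50.3-fold and 47.3-fold lower, against a floor of 3 UMIs over the 72 h group. *lncRNA:CR33938* was at least 513-fold lower, and *lncRNA:CR43283* had 5 UMIs at 72 h, against 18340 at 24 h. Both are leading genes of group 10, which had no cells at 60 and 72 h. *Oatp26F* was at 265 CPM in group 1, against 12.6 CPM in the other factor-negative neurons, and group 1 made up less of the class at 72 h. The part of such shifts in these falls was not tested.

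**Figure D5:**
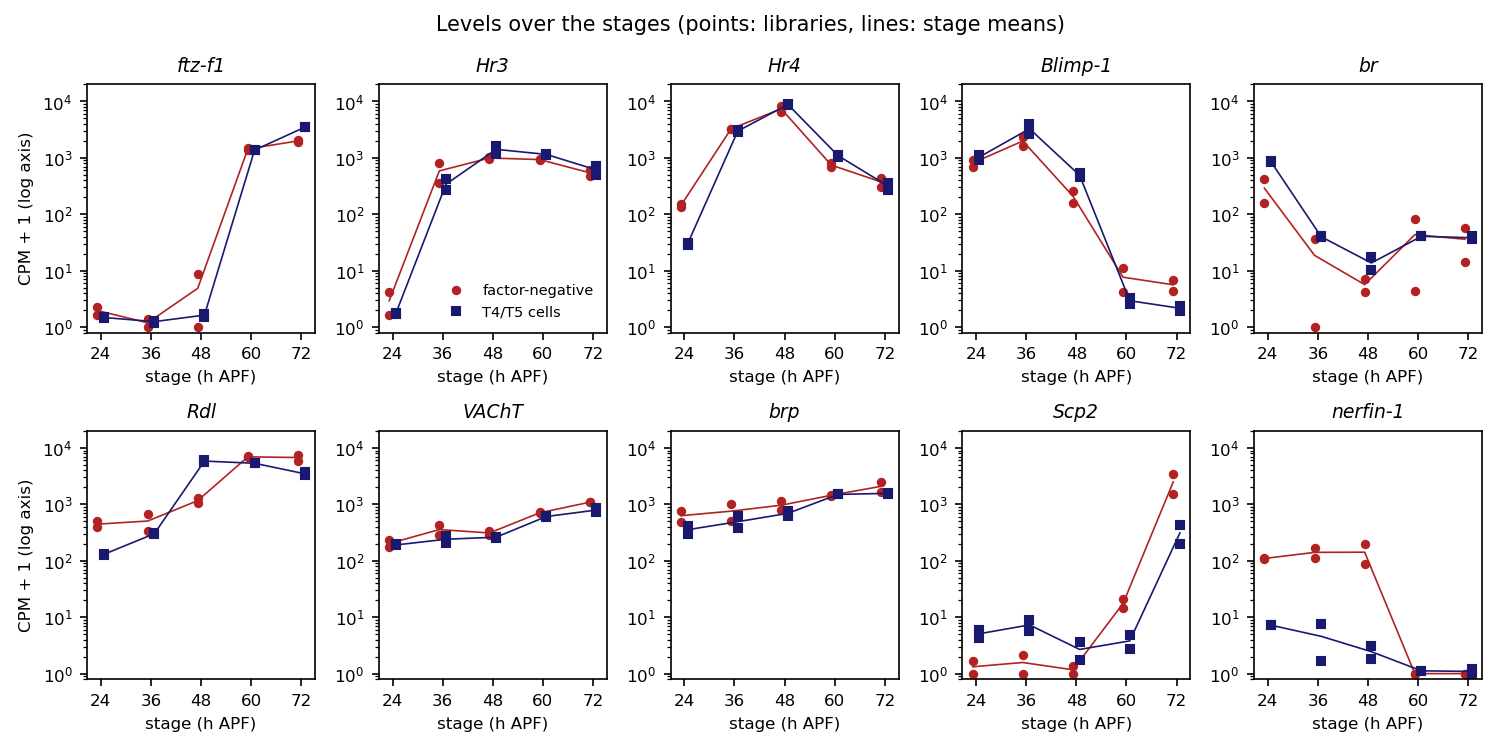
Level (CPM + 1, log axis) of 10 genes over the stages in h APF, in factor-negative neurons (circles) and T4/T5 cells (squares), with a point for each library, set slightly apart, and lines through the stage means. The nuclear receptor genes rise and fall at the same stages in both classes, whereas *nerfin-1* stays near 100 CPM until 48 h in factor-negative neurons only.

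The class difference itself changed between 24 and 72 h APF for 782 genes (9.76%), with 308 (3.84%) moving upwards and 474 (5.91%) downwards in factor-negative neurons relative to T4/T5 cells (edgeR, difference of the class effects at 72 and 24 h). Without 72 h replicate 2, 198 genes moved upwards. *Fas2*, an adhesion gene, had 493 and 53.9 CPM in factor-negative neurons and 479 and 83.7 CPM in T4/T5 cells at 72 h, against 471 and 961 CPM in factor-negative neurons and 131 and 145 CPM in T4/T5 cells at 24 h, a difference of -2.73 ± 0.27 (SE). *ct*, a homeobox gene, went the other way, with 4289 and 3362 CPM in factor-negative neurons and 1741 and 1498 CPM in T4/T5 cells at 72 h, against 677 and 1035 CPM and 4051 and 4287 CPM at 24 h (difference 3.38 ± 0.20 SE). Of 23 presynaptic genes, 3 moved downwards (*Rbp*, *cpx* and *Frq1*) and none upwards. *Rbp*, an active zone gene, had 861 and 1034 CPM in factor-negative neurons and 925 and 1238 CPM in T4/T5 cells at 72 h, against 30.3 and 23.2 CPM in factor-negative neurons and 3.29 and 1.93 CPM in T4/T5 cells at 24 h.

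Surface genes took part on both sides. Of 21 *dpr* genes 7 moved upwards and 8 downwards, and of 21 *beat* and *side* genes 3 moved upwards and 8 downwards. Over all genes, 3.84% moved upwards and 5.91% downwards. *beat-VI*, a leading gene of group 3, had 117 and 174 CPM in factor-negative neurons and 299 and 388 CPM in T4/T5 cells at 72 h, against 92.1 and 66.2 CPM and 14.4 and 3.55 CPM at 24 h (difference -4.77 ± 0.38 SE). *sNPF* changed by -2.09 ± 0.54 (SE) and turned to 2.07 without group 1 (edgeR, adjusted p = 0.00794). Its call was lost under DESeq2 (-2.02, adjusted p = 0.242). Without group 1 the call at 72 h against 24 h was lost as well.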

How the data were processed

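The authors dissociated dissected pupal brains, sorted GFP-positive cells and, per the labels and their methods, ran 10x Genomics libraries through Cell Ranger 3 with the Ensembl 97 fly annotation and added GFP and split-Gal4 sequences. The deposited values are raw UMI counts of 17757 features per barcode, 1 matrix per library, and no column was of a sample outside the series. All 10 libraries were used. The authors describe the libraries of a stage as biological replicates, and p-values measure the spread between these libraries.

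Cells were taken by the rule given in the opening. The members, gene lists and tests were chosen with earlier results of these data known. Counts were summed per library and class and tested with edgeR 4.0.16 (R 4.3.3, TMM scaling, filterByExpr, quasi-likelihood, Benjamini-Hochberg), leaving out the genes of the rule, mt: and Hsp genes. CPM are UMIs per 1e6 UMIs of a class in a library. Levels and shares of 14 transmitter genes and GFP were compared within libraries by exact sign-flip permutation (n = 10, two-sided, smallest raw p 0.00195), with a pseudocount of 5 CPM. A thinned share is the expected share of cells with a UMI after drawing 2000 UMIs from each. Clusters came from leidenalg 0.10.2 on neighbours found with scikit-learn 1.9.0 (1500 variable genes, 20 principal components, 15 neighbours, Leiden resolution 1, seed 20). They were joined where profiles of 46 transcription factor genes correlated above 0.6. Doublets were marked with Scrublet in scanpy 1.11.5 and left out as an alternative only.

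Named genes were the 12 with the largest fold change in each direction between the classes, or the 8 for the stage comparisons, among called genes of at least 20 CPM, besides those of the lists. Positions are from BDGP6.54, a later annotation than that of the counts, matched by FlyBase ID for 344 of 349 genes. Ratios against groups without UMIs use a floor of 3 UMIs over the group, and 95% intervals cover counting error only. Alternatives were DESeq2 1.42.0, its size factors in edgeR, no filter on low counts, other blocks, stricter cell limits, a pseudocount of 1 CPM, and leaving out doublets, each library, or group 1. The last was chosen after seeing the data.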

Additional observations from a re-analysis of the deposited data

Results flagged for a closer look

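The class difference changed between 24 and 72 h APF for 782 genes by edgeR's test of the difference itself. Values below are mean CPM, factor-negative neurons before T4/T5 cells, at 72 h and then at 24 h. Fits that rest on 3 UMIs or fewer in a class and stage depend on the prior count, so their size is no bound.

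The largest upward changes on the log2 scale, among genes that met the limits for named genes, were these. *s-cup* changed by 8.75 (67.9 and 3.15 CPM at 72 h, 0 and 0.215 CPM at 24 h), *CG12880* by 7.83 (31.7 and 0.196, 7.73 and 14.5), *CNMaR*, a peptide receptor gene, by 7.48 (39.4 and 2.38, 0.643 and 12.9) and *CG43689* by 6.83 (31.2 and 0.695, 0.965 and 4.38). The value of *CG43689* turned to -4.86 in cells with 0 factor UMIs. *Scp2* changed by 6.44 (2492 and 311, 0.322 and 4.10), *CG17193* by 6.31 (180 and 1.48, 6.43 and 4.74), *CG14340* by 5.93 (99.9 and 128, 5.15 and 453) and *beat-IIb* by 5.87 (423 and 91.1, 29.9 and 424).

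The largest downward changes under the same limits included genes without UMIs in factor-negative neurons at 72 h and genes near 0 in T4/T5 cells at 24 h. *Oatp26F* changed by -13.74 (0 and 3.68 CPM at 72 h, 192 and 7.36 CPM at 24 h), *lncRNA:CR44832* by -12.17 (0 and 0.116, 76.0 and 0.173), *Osi9* by -10.18 (0.369 and 32.1, 0.322 and 0) and *Grd*, a ligand-gated chloride channel gene, by -9.35 (35.2 and 195, 3.22 and 0.018). *mbo* changed by -8.82 (0 and 4.22, 18.7 and 22.1), *CG1688* by -8.09 (134 and 951, 593 and 17.5), *bark* by -8.02 (2.04 and 9.30, 95.6 and 3.03) and *hec* by -7.67 (0.739 and 46.8, 0.966 and 0.161).

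Among genes described above, *sNPF* changed by -2.09 (292 and 32.4 CPM at 72 h, 1475 and 42.0 CPM at 24 h), *grn* by -2.95 (155 and 353, 415 and 161) and *Fas2* by -2.73 (273 and 281, 716 and 138), whereas *ap* changed by 2.45 (160 and 2.49, 38.6 and 3.84) and *nAChRalpha7* by 2.19 (1074 and 37.5, 301 and 56.0). The change of *sNPF* was 2.07 without group 1 (edgeR, adjusted p = 0.00794), and its call was lost under DESeq2 (adjusted p = 0.242). The change of *grn* was -0.83 without group 1 (edgeR, adjusted p = 0.665). The calls of *s-cup*, *CG43689*, *lncRNA:CR44832*, *Osi9*, *mbo*, *bark*, *hec* and *ap* were lost under at least 1 alternative.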

How the results depend on the processing

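The class comparison called 840 to 1061 genes under the settings other than leaving out a library or group 1 (959 in the text). It called 788 without group 1, of which 604 were among the 959 and 1 more was opposite. Leaving out 1 library gave 797 to 947 genes (513 to 584 higher, 270 to 385 lower), and within stages 811 to 1013 at 24 h, 439 to 963 at 36 h, 892 to 1353 at 48 h, 540 to 778 at 60 h and 617 to 958 at 72 h APF (2127 to 2276 at any stage). At 48 h, 709 genes were called without group 1. For 72 h against 24 h the range was 1027 to 1941 (559 to 1071 higher, 468 to 870 lower), and DESeq2 called 514 lower genes of 1306. For the difference it was 622 to 866 (198 to 360 upwards, 424 to 523 downwards). A lone library of a stage was assumed to vary like the others. With 1 library left out, the range of the share of factor-negative neurons over stages was 1.91 to 8.86 points, and 13 to 19 of 30 transmitter tests passed. The cause of these shifts was not tested.

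Of 6093 values of single genes under alternatives, 5761 kept direction and call, 328 lost the call and 4 reversed: *sNPF* without group 1 (2.06 for 72 h against 24 h, -1.98 in the text, and 2.07 for the difference), *CG43689* in cells with 0 factor UMIs (-4.86) and the difference of *acj6* without 72 h replicate 2 (-0.090, in a range of -0.090 to 1.67 over single libraries left out). With the replicate number as a block, 988 genes differed between the classes and 1881 between 72 and 24 h. The numbers do not pair the samples: over 4243 genes, deviations of same-numbered libraries correlated at -0.226 to 0.636 over 10 pairs of stages, 3 of them above 0.1. Depth limits the rarest genes, since 36 h replicate 1 held 14 factor-negative neurons.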
